A study of Mus musculus with 6 samples.

Results

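The Hox genes of the 4 mouse clusters were followed over all arrays of the series. Members were every non-control probe whose gene name is Hoxa, Hoxb, Hoxc or Hoxd followed by a number, with no probe dropped for low signal. This gave 51 probes of 38 genes, out of 41174 gene probes with 27376 gene names. Mouse embryonic fibroblasts (MEFs) were profiled at day 8 of reprogramming, although the treatment protocol speaks of 6 days of culture. By the labels, every culture was infected with SKO, letters that the labels leave unexplained and that usually stand for Sox2, Klf4 and Oct4 in this field. The culture medium held serum and LIF for all. To SKO was added Flag (the control), Gadd45a, or G39A, which the series describes as a negative mutant of Gadd45a. Each of these 3 groups has 2 arrays, numbered replicate 1 and replicate 2. No embryo stage, strain, body region of origin or viral promoter was given in the labels, and no uninfected fibroblasts were among the arrays. The labels do not say that replicates came from separate cultures, so each p-value measures only the spread between these arrays.

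Hox genes encode homeodomain transcription factors and lie in clusters whose order along the chromosome follows the order in which they are active along the body axis. Low paralogue numbers act towards the head, high numbers towards the tail and, in limbs and genital tubercle, towards the tip. Cultured fibroblasts keep a Hox pattern that reflects the body site they came from, so the pattern is used as a positional label. Pbx, Meis and Pknox proteins bind DNA together with Hox proteins, and retinoic acid, made by Aldh1a enzymes and cleared by Cyp26 enzymes, sets Hox activity in the embryo.

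The probes are 60 bases long, and paralogues are most alike in the homeobox, the stretch that encodes the DNA-binding domain. Probes of paralogue group 13 are shown because like stretches limit how far a probe can tell paralogues apart. Another reason is that 1 of the 6 probes of this group was well above background on all arrays. Capitals in the Hoxa13 and Hoxd13 probes mark bases equal to the Hoxb13 probe when the sequences are laid side by side without gaps. All are written 5′ to 3′ in the direction of the transcript. Positions are chr6:52209015-52209074 (minus strand), chr2:74508005-74508064 (plus strand) and chr11:96057368-96057427 (plus strand), all in mm9.
Hoxa13 probe: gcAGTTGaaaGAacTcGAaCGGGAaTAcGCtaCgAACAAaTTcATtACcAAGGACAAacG
Hoxd13 probe: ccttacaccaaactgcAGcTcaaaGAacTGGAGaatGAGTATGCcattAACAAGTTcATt
Hoxb13 probe: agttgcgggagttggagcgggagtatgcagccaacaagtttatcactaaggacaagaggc
The Hoxa13 probe equalled the Hoxb13 probe at 40 of 58 overlapping bases (69.0%), and the Hoxd13 probe did so at 28 of 44 (63.6%). Their detection differed: Hoxa13 at this position was dim on all 6 arrays, Hoxd13 was bright on all 6, and Hoxb13 on 1. Cross-hybridisation between these probes was not tested.

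The arrays marked 57.0% to 62.9% of spots as well above background, and no spot was saturated. Arrays with the same replicate number resembled each other far more than arrays of the same group did (r of 0.989 to 0.993 against 0.922 to 0.924 over probes). Between replicate 2 and replicate 1, 14145 of 24691 probes passed limma's test (57.3%), 32.6% higher and 24.7% lower. The embryonic fibroblast label was checked against marker lists: 8 of 10 fibroblast markers were higher on replicate 2, their summed signal being 355793 to 422979 on replicate 1 and 708588 to 749422 on replicate 2. No fibroblast marker was dim on all arrays. Of 9 pluripotency markers 3 were tested and 2 were lower on replicate 2 (summed signal 4312 to 5933, then 274 to 295), with Esrrb, Utf1, Lin28a and Tdgf1 dim on all arrays. Pou5f1, which encodes Oct4, was not well above background on any array labelled SKO replicate 2 and was at least 228-fold higher on replicate 1. Sox2 went the other way, with 8.36, 8.27 and 10.9 on replicate 1 (Flag, Gadd45a, G39A), none well above background. On replicate 2 Sox2 gave 22.5, 16.4 and 15.6 and was well above background on 1 array. Epithelial markers were lower for 4 of 6 tested (8280 to 8988, then 1889 to 3271), with Cldn4 and Esrp1 dim on all arrays. Macrophage markers were higher for 3 and lower for 1 of 5 tested (1840 to 1905, then 5530 to 8943), with Ptprc and Cx3cr1 dim on all. Cartilage and bone markers were higher for 2 and lower for 3 of 6 tested (5358 to 6998, then 3137 to 3674), with Ibsp dim on all. Endothelial markers were lower for 1 of 3 tested (851 to 924, then 253 to 303), with Pecam1 and Cdh5 dim on all. The lower one was Tek (618, 596 and 639, then 25.8, 16.6 and 14.3 for Flag, Gadd45a and G39A). Kdr and Vwf did not pass (log2 differences of 0.02 and 0.35). Skeletal muscle markers were higher for both tested (624 to 797, then 3913 to 4957), with Myod1, Myog, Myf5 and Ckm dim on all. Neural markers were higher for 1 and lower for 2 of 3 tested (7594 to 10830, then 5418 to 6649), with Pax6, Sox1, Gfap and Olig2 dim on all. Among the markers called, Pou5f1, Zfp42, Cdh1, Epcam, Tek and Sp7 passed the filter only through replicate 1. Adgre1 and Acan passed it only through replicate 2. These calls are counted above but are no support, since the same difference decided their entry. Most of the change in the pluripotency, macrophage, endothelial and skeletal muscle sums came from Pou5f1, Lyz2, Tek and Acta1 respectively. The part of these cell types in the Hox values was not tested, and in RNA from whole cultures fewer cells of a type and less RNA per cell cannot be told apart. All replicate 2 arrays lie on 1 slide and the replicate 1 arrays on the other two, so replicate number and slide cannot be told apart either.

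Most of the Hox genes were measurable in these cultures. By the scanner software's own mark (called bright here, and dim without it), 35 of the 51 probes were well above background on all 6 arrays, 9 on some of them and 7 on none. By gene, 29 of 38 had a probe bright on all 6 arrays, 7 were between, and Hoxb1 and Hoxd12 had none on any array. Bright on all 6 arrays were 7 of 13 probes of paralogues 1 to 3, 13 of 14 of paralogues 4 to 7, 14 of 16 of paralogues 8 to 11 and 1 of 8 of paralogues 12 and 13. Scaled to a common 75th percentile, the 35 probes had signals from 23.0 to 9489, and the 7 probes dim throughout stayed between 3.94 and 17.4. Signals of different probes depend on their sequences and are not compared with each other here.

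**Figure D1:**
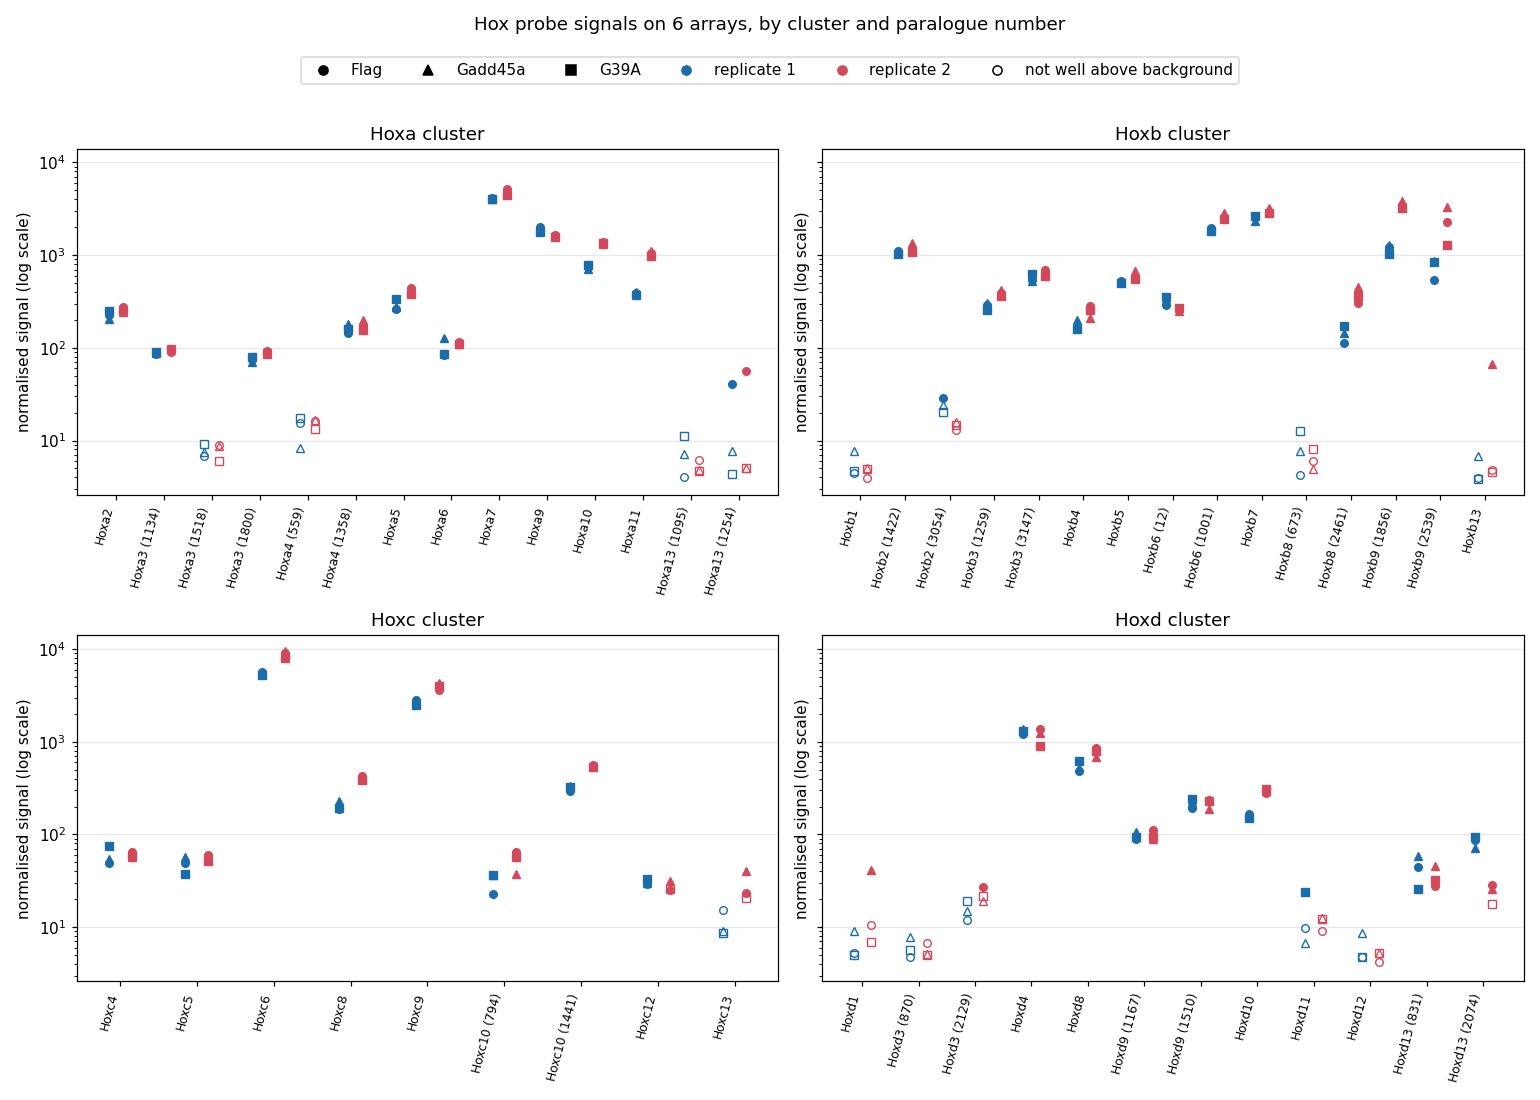
Normalised signal (log axis) of the Hox probes on the 6 arrays (1 gene not shown), in panels by cluster and ordered by paralogue number; shape gives the group, colour the replicate number, and open symbols are not well above background. A number in brackets after a gene with several probes is the transcript base where the probe starts. Points of one replicate number lie close together for most probes, and Hoxb9, Hoxa11 and Hoxb8 show replicate 2 above replicate 1 in every group.

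Comparing the replicate numbers asked whether the cultures carried the same positional Hox pattern. Of 14 probes tested of paralogue groups 8 to 11, 10 were higher on the replicate 2 arrays, led by Hoxb9, Hoxa11 and Hoxb8 at 2.60-fold to 2.98-fold. Hoxd13 was lower at 1 of its probes, which passed the filter only through its replicate 1 signals. Of 36 Hox probes tested, 17 passed (15 higher, 2 lower), representing 16 genes, against 57.3% of all probes tested, so the number of Hox calls is not above the background. The 15 higher calls compare with 32.6% of all probes and the 2 lower ones with 24.7%. All 17 had the same sign in each of the 3 groups. Arrays of the replicate numbers did not overlap for 20 Hox probes above and 4 below, against 39.5% and 28.7% of all probes (68.2% together). The median Hox difference was 0.23 (log2), against 0.10 over all probes tested, and the median size 0.38 against 0.43. At least 2-fold differences were seen for 5 Hox probes higher and 1 lower (16.7%, against 23.8% of all probes). Scaling on the probes bright on all 6 arrays moved the Hox split to 12 higher and 4 lower, and over all probes from 8047 higher and 6098 lower to 6653 and 6830. Without the filter on dim probes 11 Hox probes passed, 10 higher and 1 lower.

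Set against the 32.6% of all probes called higher, 1 of 7 probes of paralogues 1 to 3 was higher, with a median of 0.19 (log2). Among paralogues 4 to 7, 4 of 13 were higher (median 0.22), and among paralogues 8 to 11, 10 of 14 were higher (median 0.83) and none passed as lower. Paralogue 13 had 1 lower probe of 2 tested. As a description over probes that share arrays and clusters, Spearman's rho between paralogue number and difference was 0.33 over all 36 probes and 0.56 over the 34 of paralogues 1 to 11. Within clusters, for paralogues 1 to 11, it was 0.57 in Hoxa (11 probes), 0.68 in Hoxb (11), 0.70 in Hoxc (7) and 0.67 in Hoxd (5). With its paralogue 13 probes included, the value for Hoxd was -0.40 (7 probes), while the other clusters had no such probe tested.

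**Figure D2:**
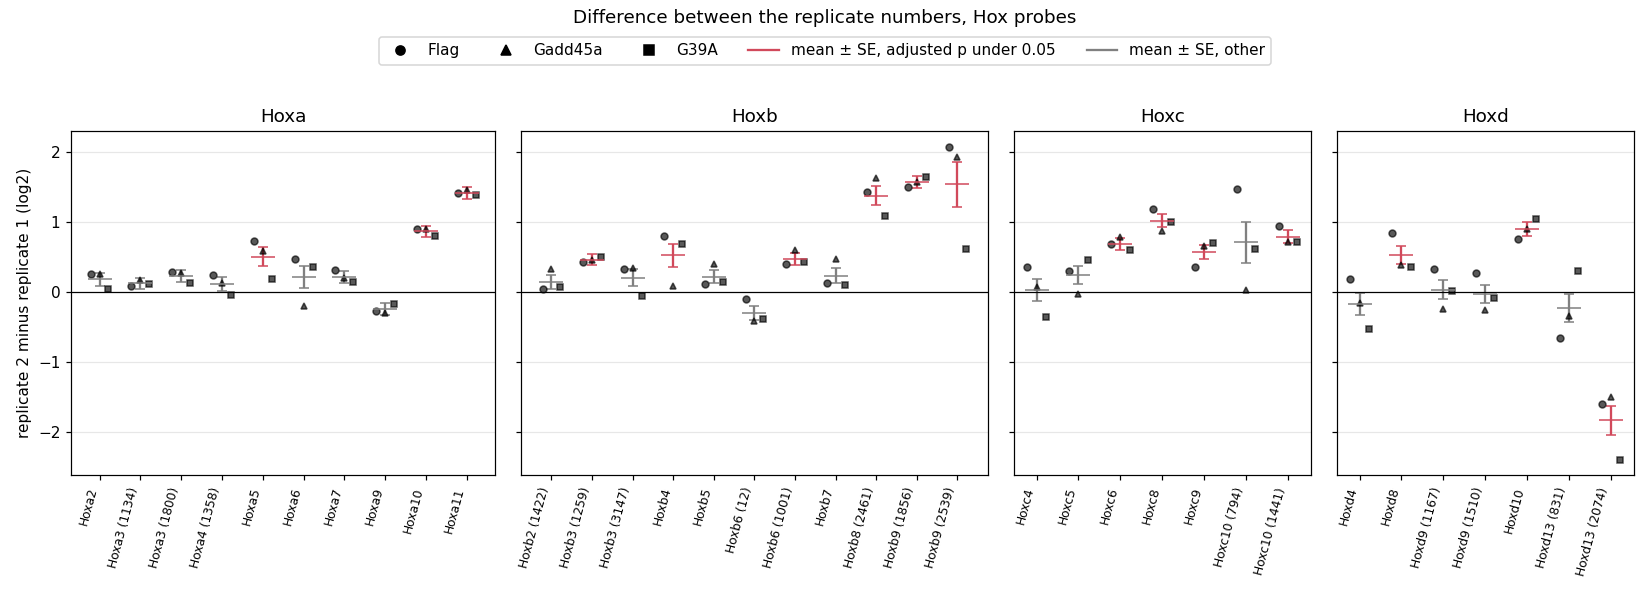
Replicate 2 minus replicate 1 (log2 of normalised signal) for the Hox probes tested (1 gene not shown), by cluster; symbols are the 3 groups, bars the mean ± SE of the limma fit (n = 3 arrays per replicate number), red where adjusted p is under 0.05. Red bars gather at paralogues 8 to 11, up to 1.58 for Hoxb9, and Hoxd13 at transcript base 2074 lies at -1.83.

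In the values that follow, the 3 signals of a replicate number are given in the order Flag, Gadd45a, G39A, and each difference is replicate 2 minus replicate 1 on the log2 scale (SE, n = 3 arrays per replicate number; limma with Benjamini-Hochberg adjustment over 24691 probes). Hoxb9, which acts with its paralogue-9 relatives in the thoracic skeleton and mammary gland, had 2 bright probes. At chr11:96137065-96137124 replicate 1 gave 1220.4, 1274 and 1029, and replicate 2 gave 3445, 3804 and 3234. The numbers did not overlap, and the difference was 1.58 ± 0.08 (adjusted p = 0.000249). The other probe, at chr11:96137748-96137807, gave 542, 875 and 838, then 2283, 3341 and 1284, a difference of 1.54 ± 0.32 (adjusted p = 0.0145). Its arrays were more spread, and its call was lost without the Flag arrays (1.27, adjusted p = 0.0643) or the Gadd45a arrays (1.35, adjusted p = 0.0524), and without the filter on dim probes (adjusted p = 0.0511). Hoxb8, which patterns the thoracic spinal cord and is active in blood progenitors, gave 113, 146 and 170, then 304, 449.5 and 362 at chr11:96146456-96146515. Every replicate 2 array lay above every replicate 1 array, by 1.38 ± 0.13 (adjusted p = 0.0013). Its second probe was dim on all arrays.

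Hoxa11, which shapes the forearm and lower leg and the uterus, gave 394, 402 and 371 on replicate 1 and 1049, 1102 and 972 on replicate 2 (chr6:52192107-52192166). This difference of 1.42 ± 0.08 (adjusted p = 0.000288) was nearly equal in the 3 groups. Its neighbour Hoxa10, active in the lumbar region, upper limb segment and uterus, gave 748, 701 and 779.7, then 1397, 1309.6 and 1361, a difference of 0.87 ± 0.08 (adjusted p = 0.00125). Hoxa9, a regulator of blood progenitors, had its higher signals on replicate 1: 1995, 1995 and 1776, then 1661, 1626 and 1576. Its replicate numbers did not overlap, but the difference of -0.24 ± 0.08 did not pass (adjusted p = 0.0595). It passed as lower under 7 alternatives, with adjusted p from 0.0121 with normexp correction to 0.0482 with only probes bright on all arrays.

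Hoxc8, a gene of the thoracic region, gave 188, 229 and 195 on replicate 1 and 427, 420.2 and 391 on replicate 2, a difference of 1.02 ± 0.10 (adjusted p = 0.00137). Hoxc9, which separates thoracic from limb motor neurons, gave 2803, 2742 and 2489.98, then 3596, 4344 and 4043, a difference of 0.57 ± 0.11 (adjusted p = 0.0103). Both rose in all 3 groups, and the Hoxc9 call was lost without the G39A arrays (0.51, adjusted p = 0.056). Hoxc10, a hindlimb-level gene, gave 291, 334 and 323, then 560.1, 547 and 533 at its 3′ probe (chr15:102801857-102801916), a difference of 0.79 ± 0.09 (adjusted p = 0.00252). Its other probe, whose span chr15:102798021-102801269 crosses an intron, gave 23.0, 36.5 and 36.8, then 64.2, 37.3 and 56.4. That difference of 0.71 ± 0.29 did not pass (adjusted p = 0.0961), though it did without the Gadd45a arrays (1.05, adjusted p = 0.0321) and with normexp correction (0.33, adjusted p = 0.046).

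Hoxd10, active in lumbar motor neurons and limbs, gave 166, 156 and 150.4, then 279.7, 292 and 311, a difference of 0.90 ± 0.10 (adjusted p = 0.00189). Hoxd8, a trunk-level gene, gave 478, 525 and 619, then 859, 688 and 797, a difference of 0.53 ± 0.13 (adjusted p = 0.0238). Both had every replicate 2 array above every replicate 1 array. The Hoxd8 call was lost without the Flag arrays (0.38, adjusted p = 0.0586), without the G39A arrays (0.62, adjusted p = 0.0558), with scaling on bright probes (0.44, adjusted p = 0.0543) and without the filter on dim probes (adjusted p = 0.0835). Hoxd9 lies between them in the cluster and did not follow. Its probes gave 89.6, 105 and 93.3, then 113, 89.2 and 94.6 (difference 0.04 ± 0.13), and 194, 225 and 242, then 234, 188 and 228 (-0.02 ± 0.13). The replicate numbers overlapped at both, and the sign of each turned under another scaling (-0.0517 with scaling on bright probes for one, 0.0585 with quantile normalization for the other).

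Of paralogues 4 to 7, Hoxc6, a gene of the cervicothoracic boundary, gave 5620.03, 5521 and 5306 on replicate 1 and 9081, 9489 and 8076 on replicate 2, a difference of 0.69 ± 0.09 (adjusted p = 0.00291). Hoxa5, which acts in lung and cervical vertebrae, gave 263, 273 and 333, then 438, 411 and 381 (0.51 ± 0.13, adjusted p = 0.0297). Hoxb4, known for expanding blood stem cells, gave 163, 198 and 161, then 283, 211 and 259 (0.53 ± 0.17, adjusted p = 0.0493). These 3 genes had no overlap between the replicate numbers. Without the Flag arrays, Hoxa5 (0.39, adjusted p = 0.112) and Hoxb4 (0.39, adjusted p = 0.179) were no longer called; the same held for Hoxa5 without the Gadd45a arrays (0.47, adjusted p = 0.106) and for Hoxb4 without the G39A arrays (0.45, adjusted p = 0.184). Scaling on bright probes also ended both calls (0.42, adjusted p = 0.064 for Hoxa5; 0.44, adjusted p = 0.0974 for Hoxb4), as did testing without the filter on dim probes (adjusted p = 0.0968 and 0.131).

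Hoxb6, a lateral-plate and trunk gene, was split between its probes. At chr11:96162563-96162622, transcript base 1001, the signals were 1966, 1899 and 1845, then 2599.9, 2881 and 2479, a difference of 0.48 ± 0.09 (adjusted p = 0.0105), which was lost without the Gadd45a arrays (0.41, adjusted p = 0.0536) and without the filter on dim probes (adjusted p = 0.0535). At chr11:96160281-96160340, transcript base 12, they were 289.9, 332 and 352, then 271, 249 and 268, a difference of -0.30 ± 0.10 (adjusted p = 0.0634), which passed as lower under 3 alternatives (adjusted p of 0.037 to 0.0463). The 5′ and 3′ probes of this gene thus had opposite signs in all 3 groups, and neither overlapped between the replicate numbers.

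The other probes of paralogues 4 to 7 did not pass. Hoxa7 and Hoxb7, trunk-level paralogues, were both slightly higher without overlap: Hoxa7 gave 4162, 4033 and 4049, then 5159.9, 4629 and 4487 (0.22 ± 0.08, adjusted p = 0.0842). Hoxb7 gave 2664, 2333 and 2641, then 2927, 3254 and 2826 (0.24 ± 0.11, adjusted p = 0.135). Hoxb5, which acts in enteric neuron precursors, gave 528, 510.4 and 496, then 572, 674 and 551 (0.22 ± 0.10, adjusted p = 0.116). Its replicate numbers did not overlap either. The remaining genes of this range showed overlapping arrays. Hoxa4 gave 145, 179.8 and 159, then 173, 197 and 156 (0.12 ± 0.10). Hoxa6 gave 83.0, 127 and 85.9, then 116, 111 and 110.04 (0.21 ± 0.16), its Gadd45a replicate 1 array being the highest of all 6. Hoxc4 gave 49.8, 53.8 and 74.9, then 64.1, 56.7 and 58.8 (0.03 ± 0.16), a sign that turned to -0.0595 with scaling on bright probes. These are genes of the cervical and upper thoracic levels. Hoxc5 gave 49.0, 56.4 and 37.8, then 60.4, 55.3 and 51.9 (0.24 ± 0.12). Hoxd4 gave 1222, 1382 and 1305, then 1389.8, 1244 and 906 (-0.16 ± 0.16), with its lowest array being G39A replicate 2.

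Among paralogues 1 to 3, genes of the hindbrain and neck, Hoxb3 was higher at the probe that starts at transcript base 1259: 289, 306 and 257, then 389, 420.4 and 363 (0.46 ± 0.08, adjusted p = 0.00826). At its other probe it gave 543, 528 and 622, then 685, 671 and 600.4, and the difference of 0.21 ± 0.12 did not pass (adjusted p = 0.187). That probe was higher on replicate 2 in Flag and Gadd45a and lower in G39A. Hoxa2, which gives the second pharyngeal arch its identity, gave 227, 205 and 247, then 273, 244 and 254 (0.19 ± 0.09). Hoxb2, which acts in rhombomere development, gave 1110.4, 1063 and 1019, then 1146, 1337 and 1069.9 (0.15 ± 0.10). Neither passed, and both overlapped. Hoxa3, needed for thymus and parathyroid, gave 84.8, 87.0 and 90.2, then 90.1, 97.8 and 97.8 at one bright probe (0.12 ± 0.08), and 75.1, 70.9 and 79.98, then 91.5, 86.02 and 87.2 at the other (0.23 ± 0.09, adjusted p = 0.0779). Another Hoxa3 probe, which lies apart from these within a span of 29972 bases, was dim on all 6 arrays.

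At the tip of the clusters stand the paralogues 12 and 13, active in hand and foot plate, genital tubercle and tail bud. Hoxd13, mutated in synpolydactyly, was lower on replicate 2 at chr2:74509248-74509307: 87.0, 72.1 and 94.4, then 28.8, 25.5 and 18.0, the last of these not well above background. The difference was -1.83 ± 0.20, 3.56-fold lower and without overlap. This probe passed the filter only through the replicate 1 arrays, where it was high. It is counted among the calls, but no p-value is given, since the same difference decided its entry. The fold also rests on a dim array. At its probe printed above, Hoxd13 gave 44.1, 58.1 and 25.9, then 28.1, 45.9 and 31.9, with overlapping arrays and a difference of -0.23 ± 0.20 (adjusted p = 0.376). The probes of this gene thus differed by 1.60 in this value. Hoxc12 was well above background on 4 arrays and gave 29.2, 29.6 and 32.9, then 25.3, 31.2 and 25.9. Its Gadd45a replicate 1 and G39A replicate 2 arrays were dim, and it was not tested between the replicate numbers.

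Comparing Flag, Gadd45a and G39A asked whether the added factor moved Hox genes. No Hox probe of 38 tested passed limma's test for Gadd45a against Flag, G39A against Flag or Gadd45a against G39A, as 0% of all 24148 probes did in each comparison. At an unadjusted p under 0.05 there were 148, 126 and 165 probes over the array, 1 of them a Hox probe in each comparison. In both comparisons with Flag it was the Hoxa13 probe described below. That probe entered only through its Flag signal, so its count against Flag is no support. With the replicate number as a block there were again 0 calls, with 1879, 721 and 2049 probes under an unadjusted 0.05. Of these 2, 1 and 2 were Hox probes. The same Hoxa13 probe was among them in both comparisons with Flag, and is no support there either. With the slide as a random block 20 (0.0828%), 3 (0.0124%) and 0 probes were called, 0 of them Hox probes. The median standard error of a difference was 0.313 (log2), and 0.123 with the block.

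Within a replicate number, group differences of the 35 Hox probes bright on all arrays lay between -0.83 and 1.38 (log2). In replicate 1, Flag and Gadd45a shared a slide and scan, and G39A was on another slide with its own scan. Differences with G39A in replicate 1 therefore cannot be told apart from slide or scan, while all groups of replicate 2 shared 1 slide. Gadd45a lay above Flag for 8 probes in both replicates, below for 5, and in opposite directions for 22; over the 21637 probes bright on all arrays these shares were 26.0%, 29.8% and 44.2%. G39A lay above Flag in both for 2, below for 12, and in opposite directions for 21, against 20.3%, 27.2% and 52.5% of all such probes. Gadd45a lay above G39A in both for 17, below for 9, and in opposite directions for 9, against 32.4%, 27.6% and 40.0%. No Hox probe reached 2-fold in the same direction in both replicates in any of these comparisons. Reaching 2-fold in either replicate were 0, 0 and 2 Hox probes (0%, 0% and 5.71%), against 2.20%, 1.37% and 1.94% of the 21637 probes bright on all arrays. Of the 2 Hox probes, Hoxd13 at transcript base 831 was higher in Gadd45a than in G39A by 1.17 in replicate 1 and 0.52 in replicate 2 (0.85 ± 0.31, SE, n = 2 per group, limma without the block, adjusted p = 0.99998). With the replicate block it was 0.85 ± 0.25 (limma adjusted p = 0.573). Hoxb9 at transcript base 2539 was higher by 0.06 and 1.38, while its other probe was higher by 0.31 and 0.23. The comparisons with Flag share the Flag arrays, and those with Gadd45a the Gadd45a arrays.

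**Figure D3:**
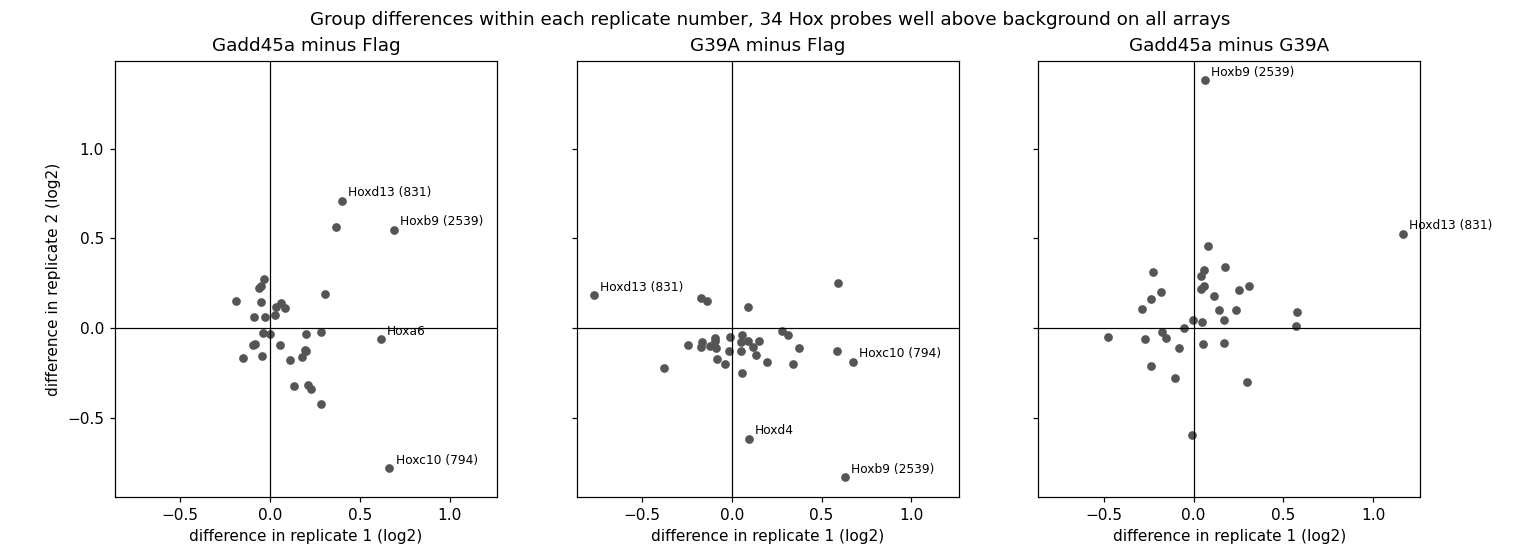
Group differences (log2 of normalised signal) in replicate 1 (horizontal) and replicate 2 (vertical) for the Hox probes bright on all arrays (1 gene not shown), 1 point per probe; probes at 0.6 or beyond in a replicate carry their name. Points scatter around 0 in every panel, and none lies beyond 1 or below -1 on both axes.

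Hoxa13, a gene of the hand and foot plate, entered the tests only through its signal in the Flag group. Its probe at chr6:52208856-52208915 (minus strand, transcript base 1254) gave 41.04, 7.72 and 4.33 on replicate 1 and 56.8, 5.08 and 5.01 on replicate 2. It was well above background on both Flag arrays and on no other. By the bound that the dim arrays allow, Flag was at least 1.75-fold higher than Gadd45a and at least 2.36-fold higher than G39A. No p-value is given, since the filter that admitted this probe is decided by the same difference. The Hoxa13 probe printed above, within a span of 218 bases with it, was dim on all 6 arrays, both Flag arrays included (4.08 and 6.14). The pattern thus rests on 1 of the 2 probes of this gene.

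Retinoic acid enzymes and Hox cofactors were followed on a list of 23 genes, of which 22 were on the array. Between replicate 2 and replicate 1, 15 were tested, 5 were higher and 2 lower, with a median of 0.25, a count not above the 57.3% of all probes called. The posterior activators Cdx1 and Cdx2 and the cluster neighbours Evx1 and Evx2 were dim on all arrays. Aldh1a2, the main retinoic acid-making enzyme of the embryonic trunk, gave 174, 182 and 171, then 679.6, 621 and 624 (1.87 ± 0.09). Aldh1a3, which makes retinoic acid in eye and nasal tissue, ran the other way with 196, 272 and 225, then 36.4, 47.1 and 41.4 (-2.47 ± 0.08). The pair had no overlap between replicate numbers and opposite signs. Of the cofactors, Meis1 rose by 0.94 ± 0.10 and Pbx2 by 0.55 ± 0.08, and Pbx4 fell (-0.91 ± 0.12). Pknox2 gave 38.9, 28.5 and 27.3, then 113, 79.0 and 81.2 (1.53 ± 0.08). It was well above background on 2 of the 3 replicate 1 arrays and passed the filter only through replicate 2. Meis1 gave 181, 161 and 209.7, then 367, 331 and 356. All of these had an adjusted p under 0.05 in limma's test (n = 3 arrays per replicate number), which for Pknox2 is no support, since the same difference decided its entry.

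Of 25 genes outside the clusters that mark limb, girdle or face position, 18 were tested between the replicate numbers, 7 were higher and 2 lower, with a median of 0.20. Calls were made for 57.3% of all probes, so this count is not above the background. Tbx4 and Dlx5, counted as higher, were each well above background on 1 replicate 1 array and passed the filter only through replicate 2. Their calls are therefore no support, since the same difference decided their entry. The hindlimb factor Pitx1 gave 2080.1, 1472 and 1793, then 3572, 3721 and 4191, a difference of 1.11 ± 0.14. Shox2, a gene of the upper limb segment, gave 115, 92.2 and 63.4, then 173, 263 and 155 (1.13 ± 0.20). Both were higher on every replicate 2 array. Prrx2, a limb and face mesenchyme factor, rose by 1.05 ± 0.11, Pax1, of the sclerotome and shoulder girdle, by 0.86 ± 0.10 and Tbx15, of the girdles and skin, by 0.64 ± 0.11. Msx1, of the limb tip and face, fell (-0.65 ± 0.10). The forelimb factor Tbx5, named after its values were seen as the counterpart of Pitx1, gave 1279, 834 and 1163, then 1166, 906 and 1225, a difference of 0.02 ± 0.09 with overlapping arrays.

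**Figure D4:**
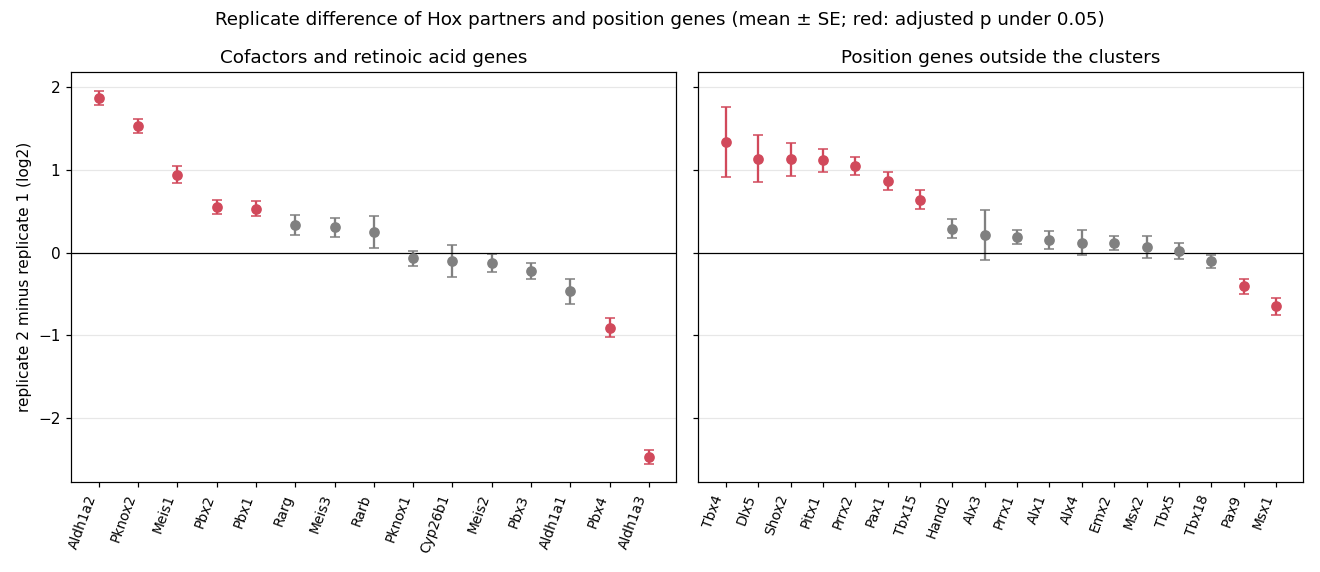
Replicate 2 minus replicate 1 (log2, mean ± SE, n = 3 arrays per replicate number) for the tested Hox cofactors and retinoic acid genes (left) and for position genes outside the clusters (right), ordered by difference; red marks adjusted p under 0.05 in limma. Aldh1a2 at 1.87 and Aldh1a3 at -2.47 are the ends of the left panel. Pknox2, Tbx4 and Dlx5 passed the filter only through replicate 2, so their red marks are no support.

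The promoters of 3 Hox genes that differed between the replicate numbers are shown since their levels moved together or apart. Each is the 250 bases before the start of the gene in RefSeq (GRCm38.p6), and 22 of the 38 genes had such an entry. Capitals mark TTTAT, or ATAAA on the opposite strand, a core that posterior Hox and Cdx proteins are known to bind. The positions in GRCm38.p6 are chr6:52245811-52246060 (minus strand) for Hoxa11, chr11:96281655-96281904 (plus strand) for Hoxb8 and chr2:74667975-74668224 (plus strand) for Hoxd13.
Hoxa11 promoter: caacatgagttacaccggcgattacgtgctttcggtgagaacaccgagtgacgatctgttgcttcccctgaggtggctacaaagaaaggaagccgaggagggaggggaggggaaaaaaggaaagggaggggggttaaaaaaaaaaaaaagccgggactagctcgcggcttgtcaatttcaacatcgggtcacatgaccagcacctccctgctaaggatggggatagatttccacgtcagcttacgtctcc
Hoxb8 promoter: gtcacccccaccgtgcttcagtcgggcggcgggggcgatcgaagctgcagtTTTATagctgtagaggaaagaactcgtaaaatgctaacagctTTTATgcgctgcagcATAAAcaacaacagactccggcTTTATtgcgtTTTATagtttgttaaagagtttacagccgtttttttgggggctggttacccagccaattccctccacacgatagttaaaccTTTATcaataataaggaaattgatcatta
Hoxd13 promoter: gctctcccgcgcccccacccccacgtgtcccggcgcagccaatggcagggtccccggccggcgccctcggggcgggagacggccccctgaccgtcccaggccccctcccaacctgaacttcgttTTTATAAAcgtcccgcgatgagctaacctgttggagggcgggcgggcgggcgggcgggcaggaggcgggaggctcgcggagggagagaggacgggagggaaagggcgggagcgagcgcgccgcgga
The Hoxb8 window held 6 matches, the Hoxd13 window 2 that overlap each other, and the Hoxa11 window 0. Over all entries, 37.3% of 32851 promoters held the motif, and 9 of 24 Hox promoters did (37.5%). For Hox genes called higher on replicate 2 it was 3 of 8 promoters, and for the other Hox genes tested 4 of 9. CG dinucleotides were more frequent in the Hox windows, with a median of 12.5 against 6 in all promoters.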

How the data were processed

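Total RNA hybridised to 6 arrays was analysed from spot intensity values that the authors deposited. Per the file headers these are Agilent Feature Extraction processed signals, background-subtracted and not normalized between arrays (version 10.7, per the submitters' processing notes). For every spot, deposited marks (0 or 1) record brightness well above background, saturation and outliers. The authors' deposited value table holds log2 values, follows the scanner intensity of its own array (r of at least 0.9989, at most 0.992 with another) and has column medians of 6.17; its direction is that of the signal, its columns share 1 distribution within 0.084, and no source used here gives its other steps. Positions of probes are those of the headers' mouse build mm9.

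Unflagged spots of a probe were averaged, log2 signals were centred on the 75th percentile of their array, and signals are printed on the linear scale after this scaling (factors 0.868 to 1.10). Probes kept the name in the files; 46 of 51 Hox probes had a RefSeq accession in the table for GRCm38.p6, all with the same symbol. Groups were compared with limma 3.58 in R 4.3 on probes well above background on both arrays of a group, and replicate numbers with the group as a term on probes well above background on all 3 arrays of a number, at an adjusted p threshold of 0.05. A fold against a group dim on all arrays is a lower bound, taken against each array's lowest signal well above background.

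The Hox probes and the gene lists were chosen with earlier results of these data known. The text gives all arrays for Hox probes called or bright on at least 3 arrays, except for 1 Hox gene that is counted but not reported here, and up to 6 called genes of each other list by smallest p. Same-numbered arrays deviated together (r of 0.900 to 0.905, first principal component 85.1%), so group differences are also given within each number. The main group tests ignored this pairing, and the replicate block was run as an alternative. On data simulated for the replicate comparison 87% of 2-fold and 100% of 4-fold changes were recovered over 24691 probes, and for Gadd45a against Flag with the replicate block 66% and 98% over 24148. Unchanged probes called numbered 13 and 15. Each simulation changed 200 probes, far fewer than the 14145 called between the replicate numbers. The main group test, without the block, was not simulated, so its recovery is not known. The number of arrays limits the precision. Alternatives were another background correction, normalization, scaling set, filter, variance trend, block and leaving out each array.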

Additional observations from a re-analysis of the deposited data

Results flagged for a closer look

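Some Hox probes were well above background on 1 array of the Gadd45a or G39A group, at a signal above both Flag arrays, and were left out of the tests on bright probes. Hoxb13, the prostate and tail-level gene, had a normalised signal of 66.34 on Gadd45a replicate 2 and 3.84 to 6.85 on the other arrays. Hoxd1, a hindbrain and sensory neuron gene, gave 41.054 on the same array and 5.06 to 10.6 elsewhere. Hoxc13, a hair follicle gene, gave 39.854 there, 23.4 on Flag replicate 2 where it was also well above background, and 8.71 to 20.5 on the other 4 arrays. Hoxd11, a forearm and kidney gene, gave 24.04 on G39A replicate 1 and 6.77 to 12.4 elsewhere. Each of these signals lacks a counterpart in the other replicate of its group. In the alternative without the filter on dim probes, which tested all 51 Hox probes, no Hox probe passed limma's test in any group comparison (unadjusted p under 0.05 for 1, 1 and 0 Hox probes for Gadd45a against Flag, G39A against Flag and Gadd45a against G39A).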

How the results depend on the processing

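Of the 17 Hox probes called between the replicate numbers, 10 kept their call under every alternative in which they were tested. Hoxd13 at transcript base 2074 was among these 10, but it was not tested with only probes bright on all arrays. The Hox count was 17, and 11 without the filter on dim probes, where 41096 probes were tested. It lay between 12 and 15 when each array was left out in turn, and between 16 and 21 under the other alternatives. Called cofactor and retinoic acid genes numbered 7 (7 to 10 over all alternatives) and position genes 9 (6 to 10). Uncalled Hox probes passed in 19 instances under alternatives that kept all arrays, for probes of Hoxa2, Hoxa3, Hoxa7 and Hoxc10 (higher) and of Hoxa9 and Hoxb6 (lower). Sign changes occurred for uncalled probes near 0: with scaling on bright probes Hoxc4 became -0.0595 and Hoxd9 (transcript base 1167) -0.0517, and Hoxd9 (base 1510) became 0.0414 with normexp correction, 0.0585 with quantile normalization and 0.0594 in the authors' deposited table. Over the arrays left out in turn, Hoxc4 ranged from -0.1369 to 0.2198, Hoxd4 from -0.3387 to 0.017, and Hoxd9 from -0.1079 to 0.1749 (base 1167) and from -0.1709 to 0.091 (base 1510). Leaving out either array of a group gives the same value, since its partner then carries no information on the replicate difference. The cause of these changes was not tested. In the group comparisons Hox calls were 0 under every alternative, the replicate block and the block on bright probes included, the latter chosen after seeing the data; the blocked model changed no Hox call. A random slide block was not run for the replicate comparison. Differences in dim probes are limited by background.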
